A study of Mus musculus with 16 samples.

Results

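The clustered protocadherins are cell-surface adhesion proteins encoded side by side in the alpha, beta and gamma clusters on mouse chromosome 18. They were taken as every row of the gene table whose mouse symbol begins with Pcdha, Pcdhb or Pcdhg. This gave 58 genes of 32207 in the table, 14 in the alpha, 22 in the beta and 22 in the gamma cluster. RNA was sequenced from O4+ oligodendrocytes, isolated with antibodies and magnets from the brains of OF-1 mice, an outbred stock, at postnatal day 16. The 4 groups were BPA males, BPA females, control males and control females, with 4 libraries each. BPA pups were exposed to bisphenol A, a monomer of plastics, through their mothers' drinking water from gestational day 7 through lactation, at a labelled dose of 40 µg/kg/day. Control pups carried the Control label and no dose. No transgene or mutant allele was labelled in any group. The question put by the study was whether early exposure alters the transcriptome of these cells, and here it is asked of the 3 clusters.

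Each variable exon of the alpha and gamma clusters has its own promoter and is spliced to constant exons that all genes of that cluster share, so the members differ in their extracellular part and have the same cytoplasmic end. Beta genes are encoded by a variable exon alone and have no constant exons. In neurons, where the family is best known, the variable promoters are chosen stochastically in each cell with the help of CTCF, cohesin and DNA methylation, whereas most genes called C types at the ends of the alpha and gamma clusters are used more uniformly. The proteins bind copies of themselves on a facing cell, and this recognition underlies the avoidance between branches of the same neuron. Bulk libraries sum over many cells, so a share of a cluster's counts does not show what any cell expressed, and fewer cells of a type cannot be told apart from less RNA per cell.

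Total counts ran from 23603816 to 42575326 per library. The oligodendrocyte label fitted the markers, with 13 genes of myelinating cells summing to between 120900 and 170800 CPM (read counts scaled to a common library size) and 14 neuronal genes to between 94.01 and 127 CPM. The neuronal sum of BPA males was 106.1 to 121.6 CPM against 103.8 to 118.7 CPM in control males, and none of the 14 neuronal genes was at 0 in every library. Syn1, the most abundant of them, averaged 50.1 CPM over all libraries and so weighs heavily in these sums, and of the 12 neuronal genes tested 2 were higher in BPA males, with a median log2 fold change of -0.09. Library 2 of the BPA males stood apart. Its chi-square per gene against its 3 group mates was between 87.58 and 131.4, compared with 15.76 to 32.60 in the other pairs of the same group, and its 12 astrocyte markers summed to 7162 CPM against 1321 to 2994 CPM in the other 15 libraries. Litters and batches were not labelled, so p-values measure only the spread between these libraries, and they may be too small if mice of a group were littermates.

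Shared exons decide what a count of an alpha or gamma gene can mean, so they were measured in the GENCODE M21 annotation, in which all 58 genes were found. Alpha genes shared 2860 or 2864 exonic bases with other genes of their cluster, and the bases that no other gene covered were 40.08% (Pcdha7) to 61.13% (Pcdha11, ENSMUSG00000102206) of the gene in 13 of them. The exception, Pcdha4, had 8.56% unshared, or 494 bases, because 2410 of its bases also lay in another gene. Beta genes were unshared over their whole length except for Pcdhb21 and Pcdhb22, which overlap by 455 bases and had 90.33% and 93.12% unshared. Gamma genes were 33.21% (Pcdhga4) to 68.53% (Pcdhgb5) unshared, with 628 bases also annotated to genes outside the family in 21 of them and 1530 such bases in Pcdhgc5. Sequence likeness outside the shared exons added to this for some genes, such as Pcdhgb2. Its bases were 56.6% unshared, and 52.1% of its 50-base words also occurred in another gamma gene. For Pcdhga5 it added little, with 54.57% of bases unshared and 45.29% of words also in another gamma gene.

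The counts themselves limited how shared bases can have been treated. Had a read in a constant exon been given to every gene that holds it, all alpha genes would share a common minimum, yet Pcdha4 had 0 counts in 12 of 16 libraries and 5 counts in all of them together. Pcdha1 had 34 and Pcdha8 had 35 counts over the 16 libraries. The same holds for gamma, in which the level of the lowest gene, Pcdhgc4, reached no more than 2.66 CPM in any library while Pcdhgc3 stood at 82.0 CPM or more. Reads in the constant exons were therefore not given to all members. Whether they were left out or given to a single member cannot be told from these counts. Where they went is not given in the sources used here. The symbol Pcdha11 stands on 2 rows of the table, ENSMUSG00000007440 and ENSMUSG00000102206, and they are kept apart below by their identifiers.

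The gamma cluster held 145110 of the family's 202966 counts (71.5%), the beta cluster 54043 (26.6%) and the alpha cluster 3813 (1.88%). Per length, on the authors' scale of normalized counts divided by the median transcript length in kb, the summed level was 2253 ± 359 for gamma, 880 ± 89.7 for beta and 44.9 ± 7.13 for alpha (SD, n = 16). Gamma without its 3 C types summed to 1025 ± 94.9. The order gamma, beta, alpha was the same when CPM was divided by unshared exon length instead, with sums of 84.6 ± 12.2, 23.7 ± 2.45 and 2.64 ± 0.429 (SD, n = 16).

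Within gamma, Pcdhgc3, a C type with a known role in dendrite branching of cortical neurons, led in 16 of 16 libraries at 1183 ± 263 normalized counts per kb (SD, n = 16). Its level was higher than that of 76.05% of the 16339 genes tested. Whether reads of the constant exons add to the counts of Pcdhgc3 cannot be told here. Pcdhga11, the member next in order and the leader of the gamma variable genes in 16 of 16 libraries, stood at 156.7 ± 31.4 per kb, and Pcdhga7 followed at 83.3 ± 10.3 per kb. The remaining gamma genes averaged between 15.5 per kb (Pcdhgb8) and 69.7 per kb (Pcdhga10), and most neighbours in that order differed by less than their SD. The other C types of the cluster were low, with Pcdhgc5 at 25.3 ± 17.3 per kb and Pcdhgc4, which in mice is needed for the survival of interneurons, at 20.2 ± 5.16 per kb.

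Beta genes were closer together. Pcdhb10 averaged 107.0 ± 20.8, Pcdhb9 84.3 ± 14.7 and Pcdhb22 66.3 ± 8.25 normalized counts per kb (SD, n = 16), and Pcdhb20 and Pcdhb18 followed at 64.9 ± 9.14 and 63.0 ± 6.53, within 1 SD of Pcdhb22. The lowest of the 21 beta genes that passed the filter on low counts was Pcdhb11 at 14.9 ± 3.84 per kb. Pcdhb1 had 3 counts in all 16 libraries together. The alpha cluster had the lowest sum of the family, and its 3 leading genes could not be ordered. Pcdhac2, a C type that in mice is needed for the spacing of serotonergic axons, averaged 9.35 ± 2.33 per kb, Pcdha11 (ENSMUSG00000007440) 9.15 ± 2.76 per kb and Pcdha12 8.92 ± 2.35 per kb (SD, n = 16). The other alpha C type, Pcdhac1, averaged 1.48 ± 0.699 per kb.

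The filter on low counts kept 50 of the 58 genes, 7 alpha, 21 beta and all 22 gamma. Pcdha1, Pcdha2, Pcdha3, Pcdha4, Pcdha5, Pcdha6, Pcdha8 and Pcdhb1 were below it, and each had between 3 and 107 counts summed over 16 libraries. Those 7 alpha genes are the most upstream of the cluster apart from Pcdha7. Those that passed were Pcdha7 and the 6 from Pcdha9 to Pcdhac2.

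**Figure D1:**
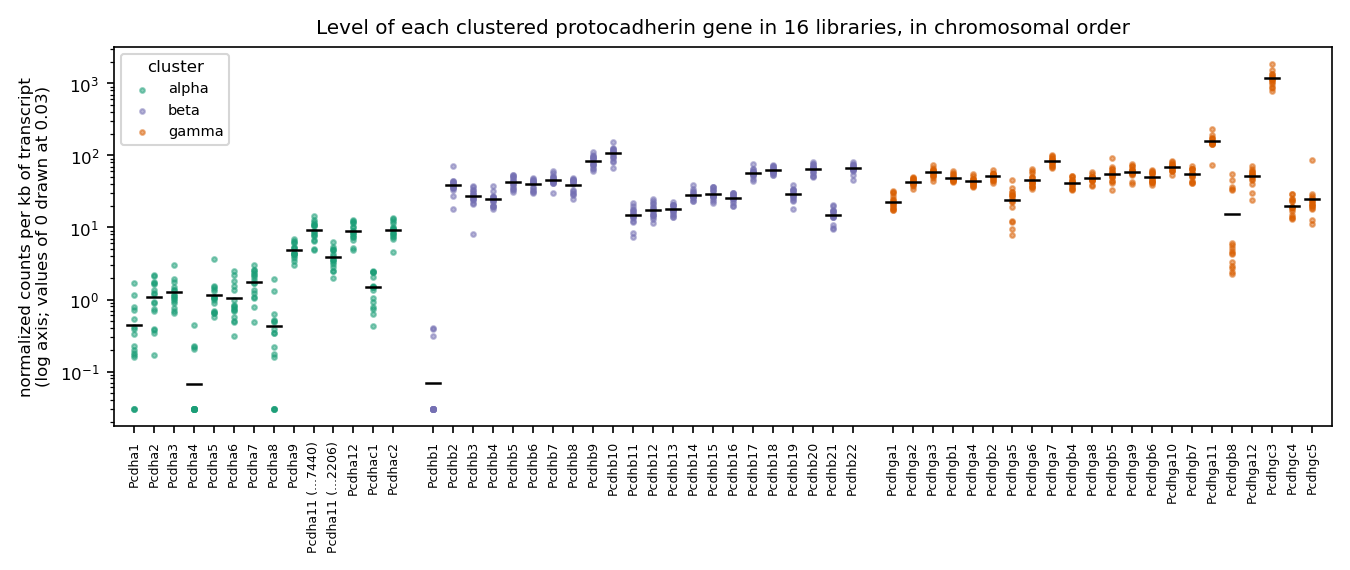
Normalized counts per kb of median transcript length (log axis) for the 58 clustered protocadherin genes in chromosomal order, 1 point per library (16 libraries) and a bar at their mean. Pcdhgc3 averaged 1183 per kb and Pcdhga11 156.7 per kb, alpha genes stayed below 10 per kb on average, and the points of Pcdhgb8 fell into a low and a high set.

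Summed over members, the 3 clusters varied little between groups. The beta cluster summed to 76.6, 81.2, 94.7 and 96.9 CPM in BPA males, against 102.6, 111.0, 96.5 and 97.0 CPM in control males. The ranges overlapped narrowly, at 96.9 and 96.5 CPM, and libraries 1 and 2 of the BPA males were the lowest of all 16. BPA females had 101.8, 114.6, 91.2 and 95.1 CPM of beta counts, and control females had 93.6, 106.8, 99.0 and 99.5 CPM, with the groups overlapping. As a log2 ratio of group means, BPA over control, this was -0.22 in males and 0.01 in females.

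The gamma cluster summed to 238.7, 317.7, 200.9 and 215.5 CPM in BPA males, against 236.4, 258.0, 272.7 and 261.0 CPM in control males. In BPA females the gamma sums were 272.5, 362.1, 264.3 and 218.8 CPM, against 256.4, 241.1, 247.2 and 284.8 CPM in control females. BPA libraries held both the highest and the lowest gamma sums, and the control libraries lay between them. The SD was 52.1 and 60.0 CPM in BPA males and BPA females, against 15.1 and 19.3 CPM in control males and control females (n = 4 each); a difference in spread was not tested. The 2 highest gamma sums belonged to library 2 of the BPA females, whose 12 precursor markers summed to 10040 CPM against 6479 to 9184 CPM in the other libraries, and to library 2 of the BPA males with its astrocyte markers at 7162 CPM. The part of these markers in the gamma sums was not tested.

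Alpha counts were few, from 184 to 298 per library. They summed to 6.26 ± 0.632 CPM in BPA males and 7.53 ± 1.12 CPM in control males, and to 7.09 ± 1.72 CPM in BPA females and 6.96 ± 0.692 CPM in control females (SD, n = 4 each). Both pairs of groups overlapped.

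**Figure D2:**
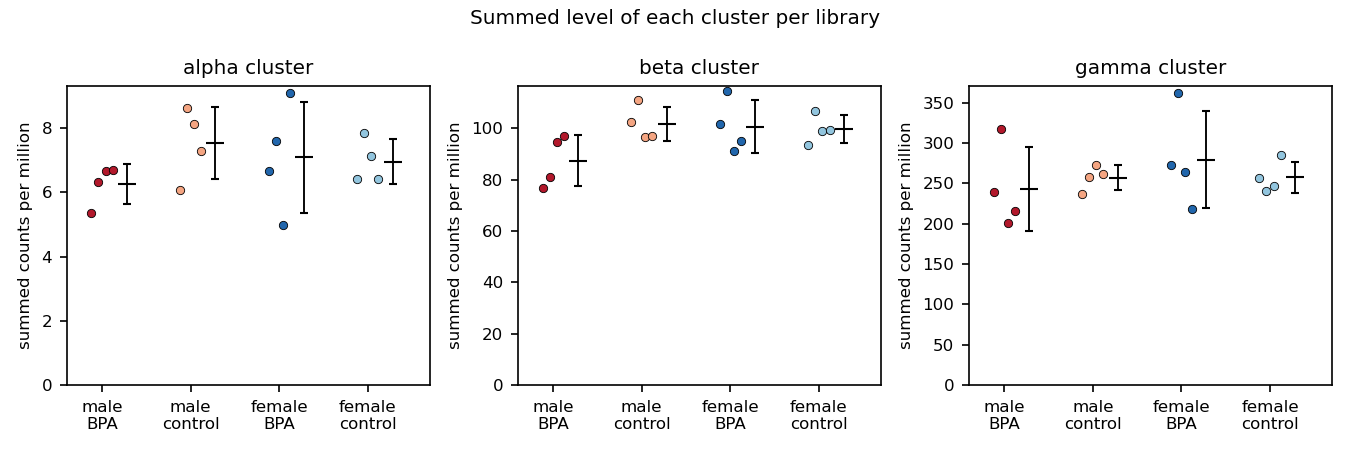
Summed CPM of the alpha, beta and gamma clusters in each library by group, with the group mean and SD (n = 4) to the right of the points. Gamma sums of BPA libraries ran from 200.9 to 362.1 CPM and enclosed those of the control libraries.

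Isoform choice was compared through each gene's share of its cluster's counts in each library. The effective number of members, the exponential of the Shannon entropy of the shares, lay between 17.4 and 17.99 of 22 genes for beta in all 16 libraries. It was 6.47 to 8.69 of 14 for alpha and 7.58 to 10.6 of 22 for gamma, in which Pcdhgc3 alone took 40.8% to 53.1% of the counts. Without the 3 C types, gamma ranged from 15.4 to 17.8 of 19, so its remaining genes divided their counts about as evenly as those of beta. The group means of the gamma value were 9.82 ± 0.975 in BPA males and 8.67 ± 0.212 in control males, and 8.55 ± 1.15 in BPA females and 8.95 ± 0.555 in control females (SD, n = 4 each).

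Gamma shares differed between libraries more than those of the other clusters. The chi-square per degree of freedom of a table of members by libraries, where 1 is the counting noise, was 13.1 for gamma, 2.95 for beta and 1.83 for alpha. Part of that gap follows from depth, since a gamma gene had more counts on average and chi-square grows with counts. Computed within each group, the gamma value was 18.8 in BPA males and 2.98 in control males, and 11.05 in BPA females and 13.99 in control females. The male controls had the lowest value in all 3 clusters, with 2.34 for beta, where the other groups lay between 2.68 and 2.88, and 1.56 for alpha. Without the C types the gamma value was 11.8 in BPA males and 3.11 in control males. A single gene, Pcdhgb8, contributed 32.1% of the gamma chi-square, ahead of Pcdhgc3 with 8.95%, Pcdhgc5 with 8.88%, Pcdhga11 with 7.79% and Pcdhga5 with 7.63%. Without Pcdhgb8 the gamma value was 9.32, and without all 5 of these genes 4.42.

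Pcdhgb8, which the M21 annotation lists as a polymorphic pseudogene between Pcdhga11 and Pcdhga12, was either high or low. It had 15, 298, 137 and 22 counts in the 4 libraries of BPA males and 11, 10, 11 and 28 counts in control males. BPA females had 20, 198, 13 and 15 counts, and control females had 29, 186, 184 and 30 counts. The values fell into separate sets, with 5 libraries at 137 counts or more and 11 libraries at 30 or fewer. The high libraries were 2 of the BPA males, 1 of the BPA females and 2 of the control females, and no control male was among them. As a share of gamma counts the high libraries had 1.66% to 2.34% and the low ones 0.12% to 0.32%. The exact binomial 95% intervals of the lowest high library (1.44% to 1.91%) and of the highest low library (0.211% to 0.457%) were far apart, counting error being all that they cover. Both states occurred within every group except the control males, and the fold changes had wide intervals. The unadjusted p of Pcdhgb8 was between 0.0940 and 0.582 in the 5 comparisons (limma-voom). Its residual spread within groups was above that of 98.26% of the genes tested.

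Shares of other gamma variable genes in the libraries with high Pcdhgb8 are given as a description, without a test. Pcdhga11 took 7.35%, 10.6%, 8.80%, 4.32% and 9.75% of gamma counts in the 5 libraries with high Pcdhgb8 (BPA males 2 and 3, BPA female 2, control females 2 and 3), against a median of 8.54% over all 16 libraries. The share of 4.32% in control female 2 was the lowest of all, and it corresponded to 10.4 CPM where the other 15 libraries had 19.9 to 31.9 CPM. Pcdhga12, on the other side, took 2.68%, 1.62%, 2.24%, 1.72% and 2.81% in these same 5 libraries against a median of 2.69%. The 3 lowest shares of Pcdhga12 among all 16 libraries were those of BPA male 3, control female 2 and BPA female 2, all in this set. Pcdhgb5, further upstream, took 2.81%, 3.94%, 3.42%, 3.66% and 3.84% in them against a median of 2.82%, and 4 of these 5 shares were the highest of all 16 libraries, the next being 3.22%. Pcdhgb7 took 2.26%, 2.80%, 1.90%, 2.36% and 2.42% in them against a median of 2.98%. Of these 5 shares, 4 were the lowest of all 16 libraries. Pcdhga10 was below its median of 3.78% in all 5. These genes were picked after their values were seen, so they are not particular to high Pcdhgb8.

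**Figure D3:**
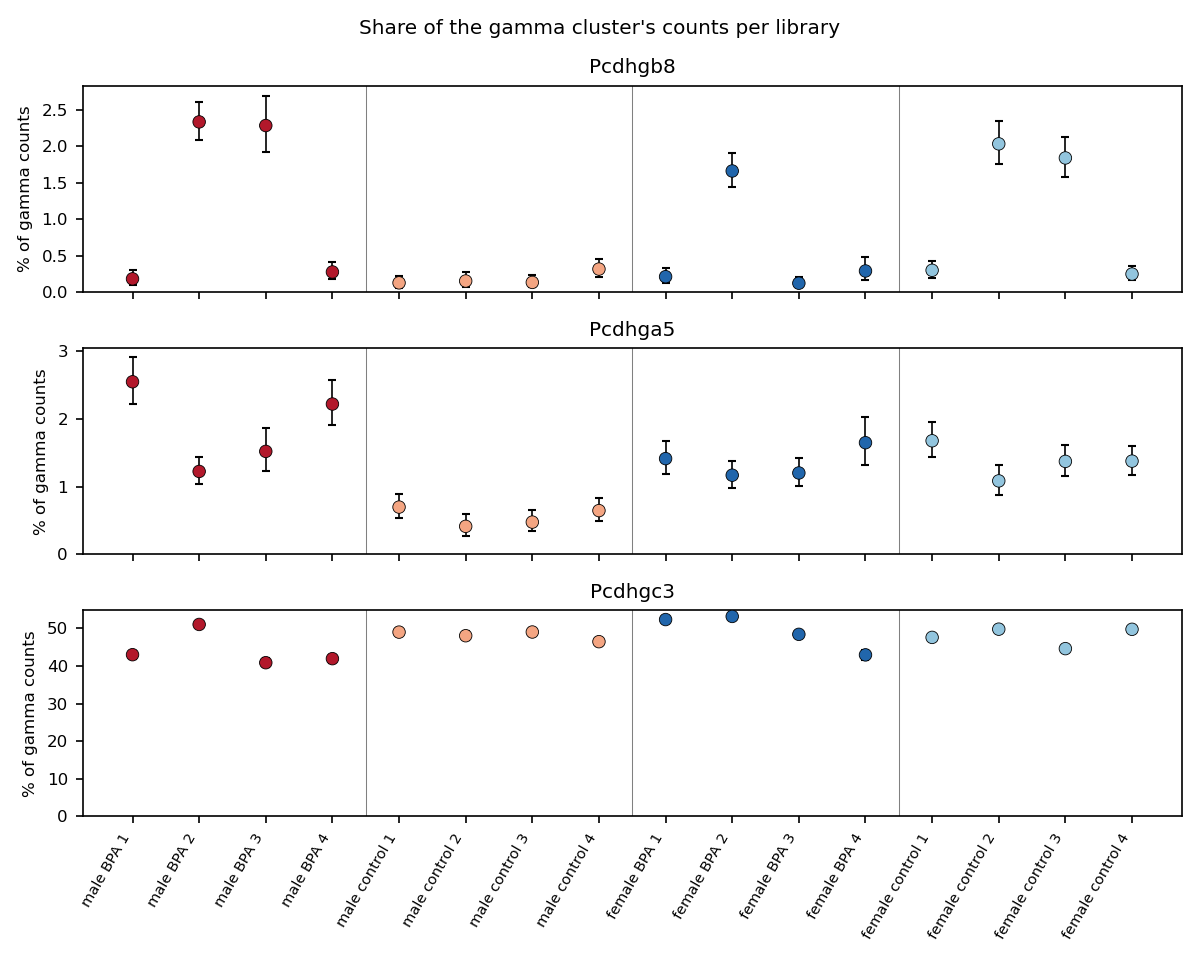
Share of the gamma cluster's counts taken by Pcdhgb8, Pcdhga5 and Pcdhgc3 in each of 16 libraries, with exact binomial 95% intervals that cover counting error only. Pcdhgb8 was at 1.66% or more in 5 libraries and at 0.32% or less in 11, and Pcdhga5 was lowest in the 4 control males.

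The remaining C types departed in individual libraries. Pcdhgc3 stood at 102.6, 162.0, 82.0 and 90.3 CPM in BPA males, against 115.8, 123.9, 133.6 and 121.2 CPM in control males. It stood at 142.5, 192.4, 127.8 and 93.9 CPM in BPA females, against 122.0, 119.9, 110.2 and 141.5 CPM in control females. Both pairs overlapped, and in each the BPA libraries reached further up and further down. Its residual spread was above that of 95.05% of the genes tested, and Pcdhga11 was at 93.64%. Pcdhgc5 had 48, 276, 26 and 36 counts in BPA males and 61, 50, 44 and 52 counts in control males. The 276 counts, or 6.87 CPM, belonged to library 2 with its high astrocyte markers, and the other 15 libraries lay between 0.87 and 2.26 CPM. Whether the astrocyte RNA carried the Pcdhgc5 counts was not tested. At the steady end, Pcdhb18 had a residual spread above that of only 0.165% of the genes tested, and Pcdhga2 was at 10.88%.

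The 3 beta genes and 3 alpha genes highest per length overlapped between BPA and control in both sexes. Pcdhb10 had 6.66, 5.63, 7.61 and 9.66 CPM in BPA males, against 9.85, 9.42, 8.67 and 6.91 CPM in control males. In BPA females it had 9.40, 12.6, 7.86 and 10.3 CPM, against 8.19, 10.5, 10.2 and 9.12 CPM in control females. BPA males 1 and 2 had the lowest 2 values of all 16 libraries and BPA female 2 the highest. Pcdhb22 had 5.90, 8.59, 8.68 and 8.36 CPM in BPA males, against 8.04, 10.4, 8.30 and 9.41 CPM in control males. Its values in females were 9.51, 8.08, 8.66 and 6.95 CPM with BPA, against 8.93, 8.41, 9.81 and 9.41 CPM in controls. Pcdhb9 averaged 7.15 ± 1.44 CPM in BPA males and 7.40 ± 1.09 CPM in control males, and 7.80 ± 1.93 CPM in BPA females and 7.72 ± 1.08 CPM in control females (SD, n = 4 each). Which beta gene took most counts varied between libraries, with Pcdhb18 leading in 8, Pcdhb10 in 5 and Pcdhb22 in 3. Pcdhb18 is not among the 3 highest per length, and its groups did not overlap in males, as given below.

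Among alpha genes, Pcdhac2 had 0.785, 1.64, 1.64 and 1.60 CPM in BPA males, against 1.21, 1.97, 2.29 and 2.21 CPM in control males. It had 1.39, 2.10, 1.27 and 1.44 CPM in BPA females, against 1.30, 1.74, 1.43 and 1.67 CPM in control females. Pcdhac2 alone led the alpha cluster in 8 libraries, Pcdha11 (ENSMUSG00000007440) in 5 and Pcdha12 in 2, and in BPA female 1 Pcdhac2 and that Pcdha11 row tied at 48 counts each. The counts behind these orders were few, at 27 to 75 for Pcdhac2, 29 to 75 for that Pcdha11 row and 25 to 78 for Pcdha12, so the leader of a library is weakly determined. Pcdhac1 had 2 to 15 counts per library and 0.251 ± 0.137 CPM in BPA males, 0.216 ± 0.124 CPM in BPA females, 0.234 ± 0.108 CPM in control males and 0.236 ± 0.122 CPM in control females (SD, n = 4 each).

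Of the gamma leaders, Pcdhga11 had 20.9, 23.4, 21.3 and 20.7 CPM in BPA males, against 19.9, 20.3, 21.3 and 26.2 CPM in control males. In BPA females it had 21.1, 31.9, 21.3 and 20.1 CPM, against 20.5, 10.4, 24.1 and 24.7 CPM in control females. Apart from BPA female 2 and control female 2 its level was thus much the same in all libraries. Pcdhga7 was steadier, with a lowest value of 7.58 CPM, a median of 9.44 CPM and a highest value of 11.6 CPM over the 16 libraries. Pcdhgc4 had 1.19, 2.66, 1.27 and 1.33 CPM in BPA males, against 1.73, 2.09, 2.26 and 2.12 CPM in control males. It had 1.76, 2.61, 1.75 and 1.74 CPM in BPA females, against 1.64, 1.24, 1.53 and 2.24 CPM in control females. In BPA males 3 of its 4 values were below every control male, and the other was above them all.

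In males, the member with the smallest p for BPA against control was Pcdhga5, a gamma variable gene. It stood at 6.07, 3.88, 3.05 and 4.78 CPM in BPA males, against 1.65, 1.06, 1.30 and 1.68 CPM in control males. All 4 BPA males were above all 4 control males, and BPA females (3.85, 4.22, 3.17 and 3.60 CPM) and control females (4.29, 2.61, 3.39 and 3.91 CPM) were also above every control male. The control males were thus the group that stood apart. The log2 fold change in males was 1.60 ± 0.25 (SE), with an unadjusted p of 1.17e-05 and a Benjamini-Hochberg adjusted p of 0.0790 over all genes (limma-voom). It did not pass the threshold of 0.05. A count-based quasi-likelihood test looked at during this work, whose values are not reported here, put the gene on the called side, as did limma-trend with an adjusted p of 0.0346, so the call depends on the test. As a share of gamma counts it was 2.54%, 1.22%, 1.52% and 2.22% in BPA males, against 0.70%, 0.41%, 0.47% and 0.64% in control males. The exact binomial intervals of the nearest libraries of the 2 groups, 1.04% to 1.43% for BPA male 2 and 0.532% to 0.896% for control male 1, did not meet. These intervals cover counting error only and not the spread between mice.

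A further 3 members, all beta genes, lay on the other side in males. Pcdhb18 had 7.79, 7.92, 8.65 and 8.47 CPM in BPA males, against 10.3, 10.6, 10.8 and 10.6 CPM in control males. The groups did not overlap, and the spread within each was small. Its log2 fold change was -0.37 ± 0.07 with an unadjusted p of 9.56e-05 and an adjusted p of 0.221 (limma-voom). Pcdhb3 had 0.90, 2.44, 2.85 and 2.36 CPM in BPA males, against 4.23, 3.98, 3.62 and 3.69 CPM in control males, again without overlap. The log2 fold change of Pcdhb3 was -0.98 ± 0.25 (adjusted p = 0.358, limma-voom), and it was -0.61 without BPA male 1, which had 31 counts. Pcdhb2 had 1.34, 0.87, 1.74 and 1.60 CPM in BPA males, against 2.17, 3.51, 2.09 and 2.01 CPM in control males, with a log2 fold change of -0.82 ± 0.21 (adjusted p = 0.369, limma-voom). Pcdhga10, a gamma variable gene, had 9.56, 8.51, 7.30 and 10.3 CPM in BPA males, against 9.96, 9.70, 11.4 and 11.7 CPM in control males. Those groups overlapped, and its log2 fold change was -0.26 ± 0.11 (adjusted p = 0.560, limma-voom).

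**Figure D4:**
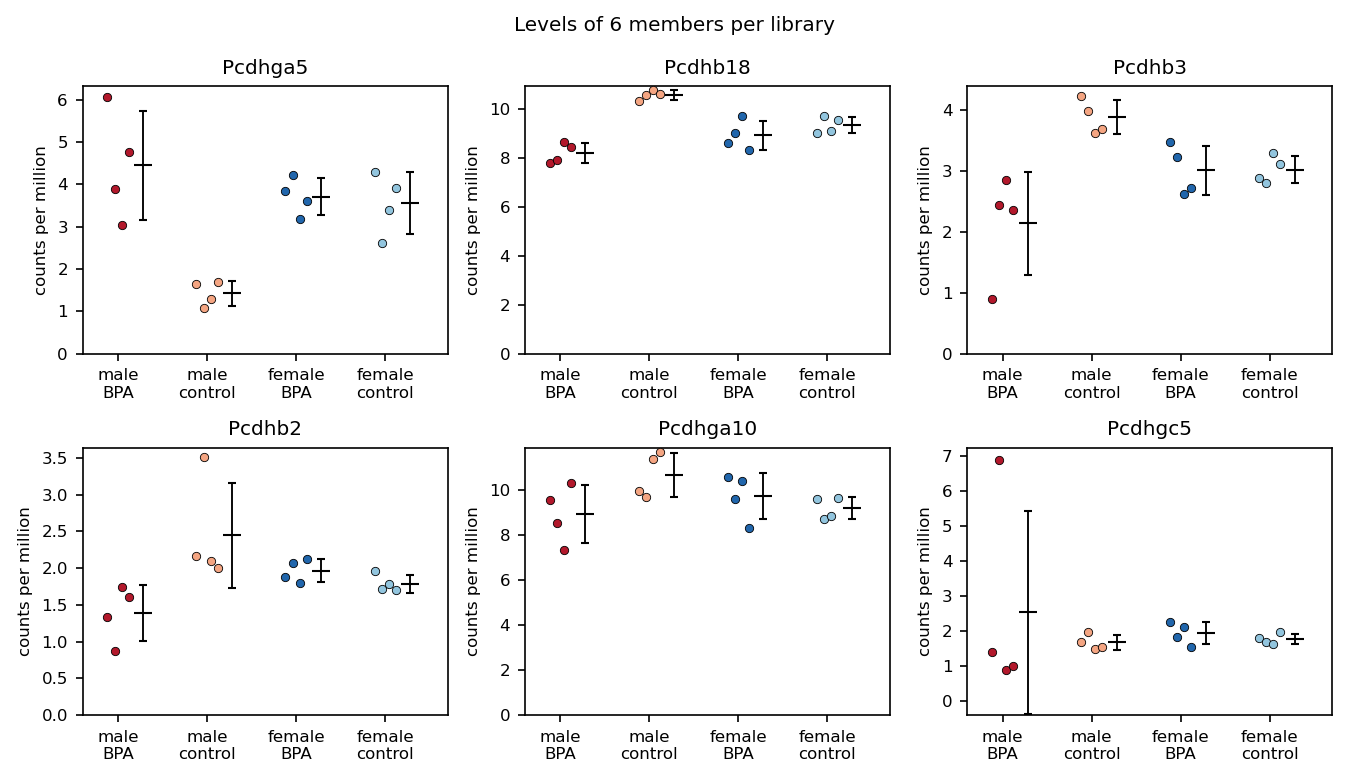
CPM of Pcdhga5, Pcdhb18, Pcdhb3, Pcdhb2, Pcdhga10 and Pcdhgc5 in each library by group, with the group mean and SD (n = 4) to the right of the points. By group mean, control males were lowest of the 4 groups for Pcdhga5 and highest for Pcdhb18, Pcdhb3 and Pcdhb2, and 1 BPA male set the mean of Pcdhgc5.

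Over the 50 tested members, none was called in males by limma-voom at an adjusted p of 0.05, where 0.00612% of all genes tested were called. At an unadjusted p of 0.05, 1 member (2%) was higher, Pcdhga5, against 3.16% of all genes. At the same threshold 5 members (10%) were lower, Pcdhb2, Pcdhb3, Pcdhb16, Pcdhb18 and Pcdhga10, against 4.8% of all genes. The groups did not overlap, in the higher direction, for 1 member (1.62% of all genes), and in the lower direction for 3 members (2.83% of all genes). With these few genes the shares stand close to the background for higher members and above it for lower ones. Over the 21 tested beta genes, 18 of which were lower in BPA males, the median log2 fold change was -0.19. It was -0.32 over 7 alpha genes and -0.06 over 22 gamma genes, beside 0.01 over all genes tested. Of all genes tested, 7769 of 16339 were lower. The number of beta genes lower stayed at 17 to 19 whichever library or setting was changed, in fits that share most of their libraries. Genes measured in the same libraries are not independent, so the 18 beta genes are not separate pieces of evidence. Marker sums of precursor and newly formed oligodendrocytes were also lower in BPA males without overlap. Gpr17, Olig1 and Tnr weigh most in the precursor sum. Of the single genes, 0 of 12 precursor markers and 2 of 8 newly formed markers had a positive fold change. The 12 precursor markers summed to 6637 to 7533 CPM in BPA males against 7813 to 9184 CPM in control males. The 8 newly formed markers summed to 3149 to 3744 CPM in BPA males against 3782 to 4500 CPM in control males. Lists of the other cell types except neurons had positive medians in BPA males. The median log2 fold change was 0.46 for ependymal and choroid plexus genes (5 of 7 positive). It was 0.05 for endothelial genes (5 of 7 positive) and 0.05 for genes of myelinating cells (10 of 13 positive). All 12 astrocyte genes (median log2 fold change 0.21), all 10 microglial genes (0.44) and 7 of 8 mural and fibroblast genes (0.73) had a positive fold change, although the summed levels of each list overlapped between the groups. Astrocyte sums were 1321 to 7162 CPM in BPA males and 1566 to 2731 CPM in control males, microglial sums 660.7 to 1324 CPM in BPA males and 536.6 to 1512 CPM in control males, and mural and fibroblast sums 39.45 to 118.9 CPM in BPA males and 25.01 to 46.17 CPM in control males. None of these marker genes was at 0 in all libraries. The part of these cells in the values of the members was not tested.

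In females no member was called by limma-voom, as was no gene of the whole table (0%). No member reached an unadjusted p of 0.05 in either direction, where 2.15% of all genes were higher and 2.41% lower. Likewise no member had groups without overlap, against 1.27% of all genes in the higher and 2.06% in the lower direction. Pcdhga5 had a log2 fold change of 0.07 ± 0.21 in females (95% interval -0.37 to 0.51, adjusted p = 0.999, limma-voom). The median log2 fold change was 0.01 for beta, 0.07 for gamma and -0.10 for alpha genes, beside 0.002 over all genes tested, and 10 of 21 beta genes were lower.

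**Figure D5:**
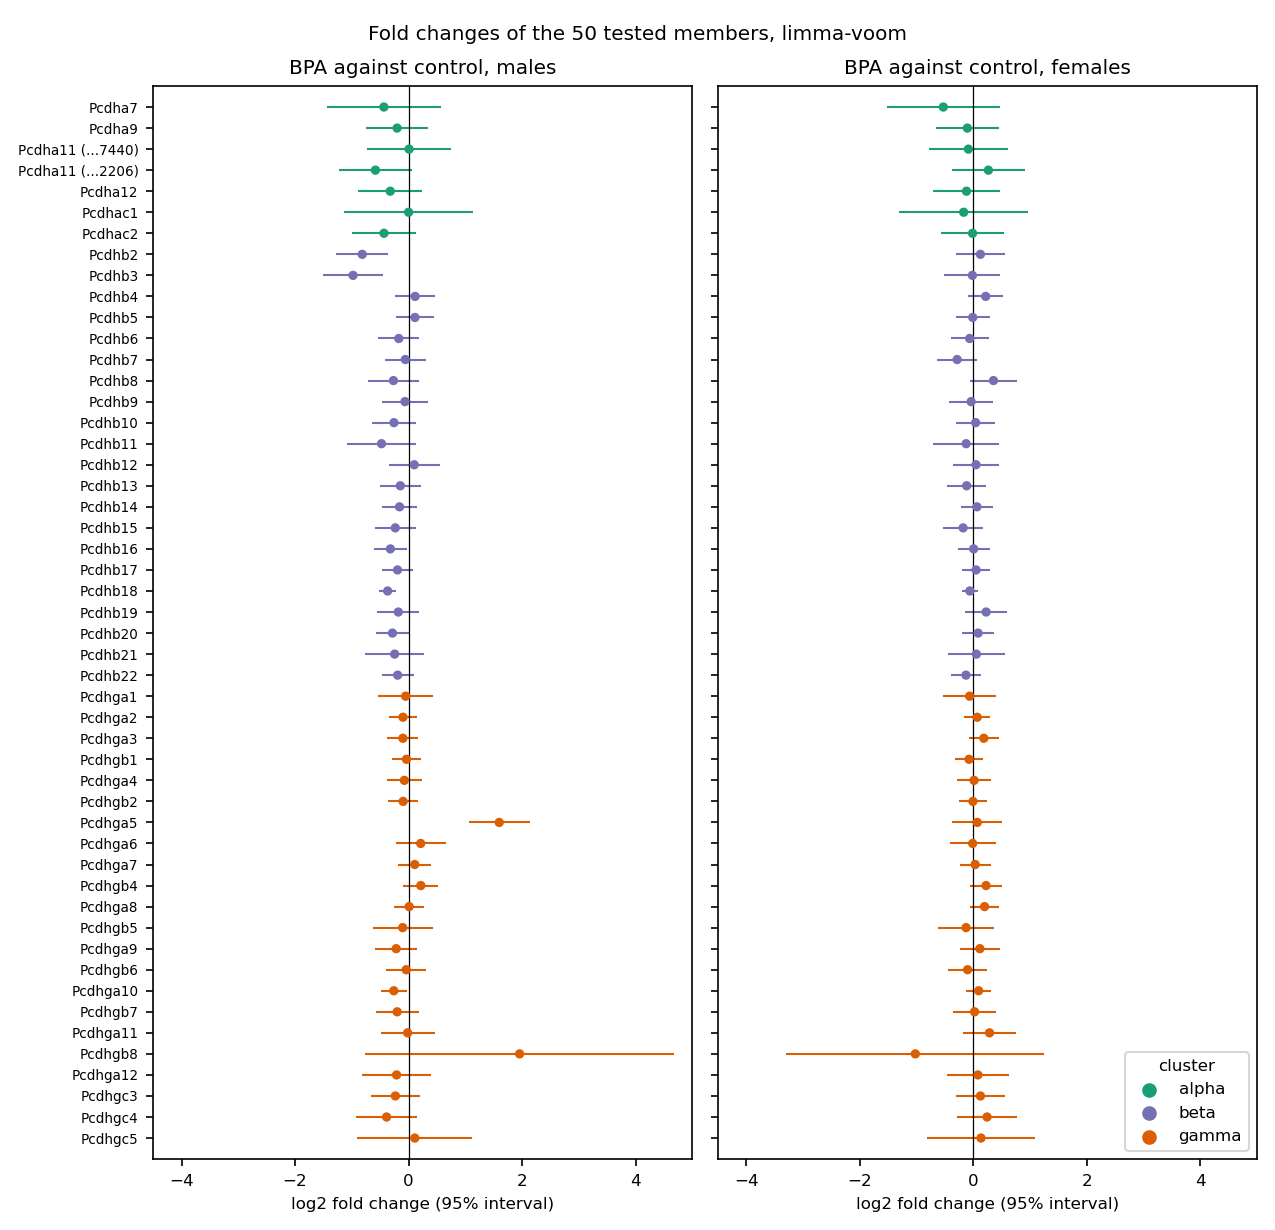
Log2 fold change, BPA against control, of the 50 tested members in males (left) and females (right), with 95% confidence intervals from limma-voom, in chromosomal order from top to bottom and coloured by cluster. In males 18 of 21 beta genes were below 0 and Pcdhga5 stood at 1.60, while in females 10 of 21 beta genes were below 0 and the interval of Pcdhga5 held 0.

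Taking both sexes together, as the mean of their BPA effects, limma-voom called no member, and 0.0184% of all genes. Pcdhga5 (log2 fold change 0.83 ± 0.16, adjusted p = 0.151) and Pcdhgb4 (0.22 ± 0.10, adjusted p = 0.614) were higher at an unadjusted p of 0.05, against 3.23% of all genes. Pcdhb18 (-0.21 ± 0.05, adjusted p = 0.230), Pcdhb3 (-0.50 ± 0.17, adjusted p = 0.470) and Pcdhb2 (-0.34 ± 0.15, adjusted p = 0.587) were lower, against 4.46% of all genes. Pcdhgb4, a gamma variable gene, had 6.10, 5.23, 4.59 and 5.29 CPM in BPA males, against 4.01, 5.64, 4.92 and 4.10 CPM in control males. In BPA females it had 5.55, 6.35, 6.22 and 4.41 CPM, against 4.85, 5.01, 4.25 and 5.35 CPM in control females, and both pairs overlapped.

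The difference between the sexes in the BPA effect was itself tested, as female minus male. No member was called by limma-voom, and 0% of all genes were. At an unadjusted p of 0.05, 5 members were higher, Pcdhb2, Pcdhb3, Pcdhb8, Pcdhb18 and Pcdhga10, against 3.12% of all genes. One was lower, Pcdhga5, against 1.61% of all genes. The difference for Pcdhga5 was -1.53 ± 0.32 on the log2 scale (unadjusted p = 0.000275, adjusted p = 0.999, limma-voom), and for Pcdhb18 it was 0.31 ± 0.10 (unadjusted p = 0.00634, adjusted p = 0.999, limma-voom). A sex-specific effect of BPA on these genes was therefore not shown at this threshold.

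Unexposed mice were also compared by sex, a comparison that shares its 4 control males with the male BPA comparison, so the 2 results are not independent. Pcdhga5 was higher in control females than in control males, with a log2 fold change of 1.29 ± 0.25 (unadjusted p = 0.000129, adjusted p = 0.210, limma-voom). In the male BPA comparison the same 4 control males gave 1.60 ± 0.25. Pcdhb18 was at -0.18 ± 0.07 in control females against control males and at -0.37 ± 0.07 in BPA males against control males. Pcdhb5 stood at 4.37, 5.62, 4.45 and 5.21 CPM in control females, against 3.43, 4.53, 3.52 and 3.60 CPM in control males, a log2 fold change of 0.39 ± 0.15 with overlapping groups. Pcdhb12 stood at 1.72, 2.08, 1.34 and 1.89 CPM in control females, against 1.26, 1.42, 1.33 and 1.15 CPM in control males, a log2 fold change of 0.43 ± 0.20 with overlapping groups. None of the 50 members was called by limma-voom, against 0.0551% of all genes, 3 were higher at an unadjusted p of 0.05 (1.44% of all genes) and 1 was lower (1.47%). Groups did not overlap for 1 higher member (0.924% of all genes) and for 4 lower members (1.22%), Pcdhb2, Pcdhb3, Pcdhb18 and Pcdhga10.

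Genes that act with the family were listed separately. Of 20 regulators of protocadherin promoter choice, such as CTCF, cohesin subunits and DNA methyltransferases, all 20 were tested and none reached an unadjusted p of 0.05 in any of the 5 comparisons. Of 25 cytoplasmic partners and processing enzymes, 1 was higher and 5 were lower in BPA males at that threshold, where 3.16% of all genes were higher and 4.8% lower, and none was called. They included Marcks, an actin-binding substrate of protein kinase C downstream of gamma protocadherins (log2 fold change -0.44 ± 0.13, adjusted p = 0.401, limma-voom), and Fyn, a Src-family kinase active in myelination and itself a newly formed oligodendrocyte marker here (-0.44 ± 0.13, adjusted p = 0.426, limma-voom). Cyfip2, a subunit of the WAVE actin-regulating complex, which binds alpha protocadherins, stood at -0.36 ± 0.13 (adjusted p = 0.515, limma-voom). In females 2 partners were lower at that threshold, Psenen and Psen2, subunits of the gamma-secretase that cleaves the proteins, against 2.41% of all genes.

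Of 20 non-clustered protocadherins, encoded elsewhere, 1 was lower in BPA males and 1 was higher in BPA females at an unadjusted p of 0.05. Of all genes, 4.8% were lower in males and 2.15% higher in females, so in males 1 of 20 was close to the background. The gene was Pcdh15 in both sexes, lower in BPA males (-0.33 ± 0.11, adjusted p = 0.487, limma-voom) and higher in BPA females (0.28 ± 0.11, adjusted p = 0.999, limma-voom). The difference between those effects, female minus male, was 0.61 ± 0.16 with an adjusted p of 0.999. In control females against control males, which shares its controls with both, Pcdh15 stood at -0.45 ± 0.11 (unadjusted p = 0.000980, adjusted p = 0.889, limma-voom), larger in size than either BPA value. Among 13 tested genes that flank the clusters, Tmco6 (0.31 ± 0.10) and Hars (0.16 ± 0.06) were higher in BPA males at an unadjusted p of 0.05, with adjusted p of 0.450 and 0.496 (limma-voom). At that threshold 3.16% of all genes were higher. No flanking gene was lower at that threshold in males.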

How the data were processed

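RNA was sequenced in 16 libraries, 4 per group. The submitters' processing notes name STAR 2.5.3a, HTSeq 0.6.1p1, the build mm39, bcl2fastq 2.20.0.422 and, by the authors, DESeq2 1.16.1; the annotation release, counting mode and strand setting are not given in the sources used here. Per the labels, the table deposited by the authors gives raw counts, normalized counts, and normalized counts divided by the median length of the transcripts in kb. Units were judged from the values, because the unit check could not parse the header. On that procedural ground limma-voom, itself fitted to the columns labelled raw counts, replaced the main test first chosen. The values did not require the change. The test first chosen was the quasi-likelihood test of edgeR, which was not used for a reported value. It was once run outside the scripts and seen.

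The members and lists were chosen with earlier results of these data known. Symbols came from GENCODE M21 for 31717 of 32207 genes. Its GRCm38 build differs from that of the files, so only names, order and exon lengths were used. Genes needed a minimum count of 10 in the equivalent of 4 libraries and 15 in total, which kept 16339 genes. Scaling was by TMM (trimmed mean of M values), and limma 3.58.1 in R 4.3.3 fitted 1 coefficient per group with robust empirical Bayes, two-sided, with Benjamini-Hochberg adjustment over all genes tested and a threshold of 0.05. The fits were tested on simulated data. CPM are relative to the scaled total, and 3 counts, the limit a count of 0 allows, equal 0.0707 to 0.127 CPM. Members described in full were the 3 highest per length in each cluster, the C types, up to 5 with the smallest unadjusted p under 0.05 per comparison, the 3 of largest residual spread, and Pcdhga5. Pcdhb16, Pcdhb8, Pcdhga12, Pcdhgb5, Pcdhgb7 and Pcdhga2 were named after their values were seen. Cluster sums and shares are descriptions without tests. The alternatives were other scaling, filters, samples, blocking, left-out libraries and weights.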

Additional observations from a re-analysis of the deposited data

Results flagged for a closer look

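Among 96 sets of 4 libraries, formed by the 21 members described in full and the 3 cluster sums in each group, 9 had a library whose gap to its neighbour, relative to the group's range, exceeded the 95% Dixon limit for 4 values. Chance alone flags about 1 in 20 groups, a rate that does not hold for Pcdhgb8, Pcdhga11 and Pcdhgc3, which were among the 21 for their large spread; 2 of the 9 are theirs. Pcdhac2 stood at 0.785 CPM and Pcdhb22 at 5.90 CPM in BPA male 1, the lowest of their group, where the nearest libraries had 1.60 and 8.36 CPM. BPA male 2, the library with high astrocyte markers, had 6.87 CPM of Pcdhgc5 and 2.66 CPM of Pcdhgc4, against 1.40 and 1.33 CPM in the nearest BPA male. BPA female 2, the library with the highest precursor markers, had 31.9 CPM of Pcdhga11, 2.61 CPM of Pcdhgc4 and 6.02 CPM of Pcdhgb8, against 21.3, 1.76 and 0.635 CPM in the nearest BPA female. Control male 2 had 3.51 CPM of Pcdhb2 and 4.53 CPM of Pcdhb5, against 2.17 and 3.60 CPM in the nearest control male. What set these libraries apart was not tested.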

How the results depend on the processing

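The 20 fold changes of members followed over the alternative fits gave 470 values in all, from fits that share most of their libraries. Of these values, 465 kept their direction and side of the threshold. No member was called in the main fit, so none could lose a call. Pcdhga5 was called in males by limma-trend (1.58, adjusted p = 0.0346), which was chosen after the data were seen, and in control females against control males by the same test (1.29, adjusted p = 0.0386). With the replicate block it was called in males (1.62, adjusted p = 0.0160) and in control females against control males (1.30, adjusted p = 0.0185). The block is no stronger evidence, since the numbers do not pair the samples: deviations of same-numbered libraries correlated at -0.127 to 0.352, median -0.018, with 3 of 24 pairs over 0.1. With the block 1 gene was called in males, Pcdhga5, in place of the 1 gene called without it, and 0 were called for the mean of both sexes. Leaving out 1 library moved the adjusted p of Pcdhga5 in males between 0.0511 and 0.356, and its fold change in females between -0.0496 and 0.17, the only change of direction.

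Over all genes, 1 was called in males, with 2 unfiltered, 0 under the stricter filter, 4 with only these groups fitted, 3 by limma-trend, 0 with library quality weights, 0 without BPA male 2 and BPA female 1 together, and 0 to 3 leaving out 1 library. In females 0 were called, with 2 unfiltered, 1 with only these groups, and 0 to 0 leaving out 1. For the mean of both sexes 3 were called, with 0 under the stricter filter, 0 without the 2 libraries together, and 0 to 5 leaving out 1. The difference between the sexes had 0, and 0 to 3 leaving out 1. Control females against control males had 9, and 4 to 9 leaving out 1. The ratios of cluster sums moved by less than the SD between libraries in every alternative run, but several changed sign. The gamma ratio in males ranged from -0.24 to 0.01 leaving out 1 library and reached 0.08 in another setting. In females, leaving out 1 library moved the alpha ratio between -0.10 and 0.17. The beta ratio in females then ranged from -0.04 to 0.07 and the gamma ratio from -0.02 to 0.23. The 6 members at an unadjusted p of 0.05 in males became 10 without control male 1. In females 0 members became 1 unfiltered, 1 with library quality weights, 2 without BPA male 2 and BPA female 1 together, and 0 to 2 leaving out 1 library. The leading 3 alpha genes were the same on all length scales, and 2 of 3 remained for beta and gamma. The ground for leaving out count-based tests was procedural: the unit check could not parse the header, although limma-voom was fitted to the same counts. The planned DESeq2 alternative was not run, and the edgeR test was only looked at separately and not used for any value given. In that look Pcdhga5 in males fell on the called side of the threshold, as with limma-trend. At this depth a count of 0 allows a level of up to about 0.1 CPM. Genes below the filter on low counts, such as Pcdha3 at a mean of 0.197 CPM, were not tested in the main fit.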
